A study of Rattus norvegicus with 84 samples.

Results

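The nucleus accumbens is a striatal region whose shell takes part in reward and in learning about drug cues. Of the 84 libraries of the study, 14 are described here: 7 labelled Shell and Ext_Sal and 7 labelled Shell and HC_Sal, picked out by their titles. Both groups came from wild-type Long-Evans rats that had received saline (Sal), so neither had cocaine, and they differ by condition. Ext is extinction in the study's own terms, and HC commonly stands for home cage, which the labels do not state. The labels give no age, sex or number of rats. They also leave unsaid whether each library is its own rat, so a p-value here reflects library-to-library spread, which may be technical. Libraries were numbered in series 3 (2 per group), 4 (3 per group) and F (2 per group), and series was a covariate in the main fit. Each library is named here by the number in its title.

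Immediate early genes are switched on within minutes of strong synaptic input, through calcium and cAMP signals that act on transcription factors already present in the neuron. Many of them encode transcription factors themselves (the Fos, Jun, Egr and Nr4a families, Npas4), others act at the synapse (Arc, Homer1) or switch off kinase signalling (the Dusp phosphatases). In the striatum their RNA is widely used as a readout of recent activity of projection neurons. The sites through which such signals act lie close to the gene's start. The 250 bases before the start are shown for 3 members whose levels are described below, from RefSeq on build GRCr8, with capitals marking TGACG or its complement CGTCA (the core of the cAMP response element bound by CREB) and, in Egr2, the CArG box bound by serum response factor as well. The windows are chr7:134259888-134260137 on the plus strand for Nr4a1, chr4:119607818-119608067 on the minus strand for Egr4 and chr20:21054442-21054691 on the minus strand for Egr2.
Nr4a1: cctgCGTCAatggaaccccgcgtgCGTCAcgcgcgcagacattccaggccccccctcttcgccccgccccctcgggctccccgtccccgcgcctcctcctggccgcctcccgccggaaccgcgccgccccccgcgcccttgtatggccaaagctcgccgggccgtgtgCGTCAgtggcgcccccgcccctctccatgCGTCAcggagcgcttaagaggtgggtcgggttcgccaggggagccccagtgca
Egr4: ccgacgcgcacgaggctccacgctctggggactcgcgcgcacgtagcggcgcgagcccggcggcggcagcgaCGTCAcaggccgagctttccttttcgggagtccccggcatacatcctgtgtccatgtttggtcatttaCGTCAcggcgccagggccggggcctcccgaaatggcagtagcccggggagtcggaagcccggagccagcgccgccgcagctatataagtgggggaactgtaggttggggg
Egr2: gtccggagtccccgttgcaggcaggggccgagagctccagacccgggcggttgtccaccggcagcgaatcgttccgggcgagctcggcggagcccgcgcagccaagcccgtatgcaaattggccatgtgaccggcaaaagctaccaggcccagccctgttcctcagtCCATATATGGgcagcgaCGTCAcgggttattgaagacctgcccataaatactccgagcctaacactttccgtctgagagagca

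The Nr4a1 window held 4 TGACG matches, the Egr4 window 2, and the Egr2 window 1 beside 1 CArG box. RefSeq windows were at hand for 33 of the 41 immediate early genes tested, and 20 of the 33 (60.6%) held TGACG on either strand, against 20.0% of all 27457 genes with a window. The full palindrome TGACGTCA, which contains TGACG, stood in 7 of the 33 (21.2%) against 1.78% of all genes, and the CArG box in 3 of them against 1.62%. Among the members with a window, TGACG was found in 9 of the 15 with the low estimates given below and in 11 of the other 18, so its presence did not separate them. A match describes the letters and is no evidence of binding.

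Between Ext_Sal and HC_Sal, no gene of 30911 tested passed an adjusted p of 0.05 (0 genes, 0%) in edgeR's quasi-likelihood test, where the smallest adjusted p was 0.633. DESeq2's Wald test called 0 genes as well. At an unadjusted p under 0.05 there were 874 genes lower in Ext_Sal (2.83%) and 912 higher (2.95%), and in 15 genes (0.0485%) every Ext_Sal library lay below every HC_Sal library. These counts moved with single libraries: they were 271 lower and 222 higher without Ext_Sal 12-F, 381 and 433 without Ext_Sal 3-6, 2441 and 1614 without Ext_Sal 4-4, 549 and 584 without HC_Sal 8-F, and 487 lower without Ext_Sal 4-5. Immediate early genes were among the genes of lowest p: Fosl2 ranked 1 of all genes, Fosb 2, Nr4a1 3, Fos 5, Arc 7, Junb 11, Egr4 12 and Nr4a3 13. Of the 41 members tested, 36 had estimates below 0, with a median log2 fold change of -0.39 against 0.04 over all genes. At an unadjusted p under 0.05, 20 were lower and 0 higher, and 6 of the 15 genes without overlap were members (Fosl2, Fosb, Fos, Egr4, Nr4a3 and Egr2).

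Fosl2 and Fosb, of the AP-1 family, whose proteins pair to bind DNA as Fos-Jun dimers, had the lowest p. Fos, the most used marker of neuronal activity, was at 5.08, 5.47, 5.54, 6.23, 6.41, 6.83 and 7.25 CPM in the Ext_Sal libraries (CPM, counts divided by the library total, itself adjusted by edgeR's TMM factor). In the HC_Sal libraries it was at 7.58, 9.92, 11.3, 11.7, 12.2, 12.8 and 13.1 CPM. Every Ext_Sal library lay below every HC_Sal library, and the gap between the nearest pair was small. The log2 fold change of Fos was -0.86 ± 0.21 (SE), or 1.82-fold lower, with an adjusted p of 0.633 in edgeR. Fosl2, which encodes Fra-2, ran from 18.4 to 25.1 CPM in Ext_Sal (median 21.1) and from 28.3 to 39.4 in HC_Sal (median 33.1), a log2 fold change of -0.59 ± 0.13. Fosb, whose truncated form accumulates in the accumbens on repeated drug exposure, ran from 3.86 to 6.58 CPM (median 4.77) and from 7.10 to 11.0 (median 7.95), a log2 fold change of -0.68 ± 0.17. Neither Fosl2 nor Fosb overlapped between the groups, and neither passed (adjusted p 0.633 for both in edgeR). Junb, a Jun partner of Fos, had medians of 15.5 CPM in Ext_Sal and 26.7 in HC_Sal, with overlap between 18.3 and 19.1, and a log2 fold change of -0.88 ± 0.24. Fosl1, Jun and Jund, named to complete the family after their values were seen, had log2 fold changes of -0.07 ± 0.12, -0.36 ± 0.21 and -0.33 ± 0.24 with all libraries and of 0.0083, -0.25 and -0.16 without 12-F.

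**Figure D1:**
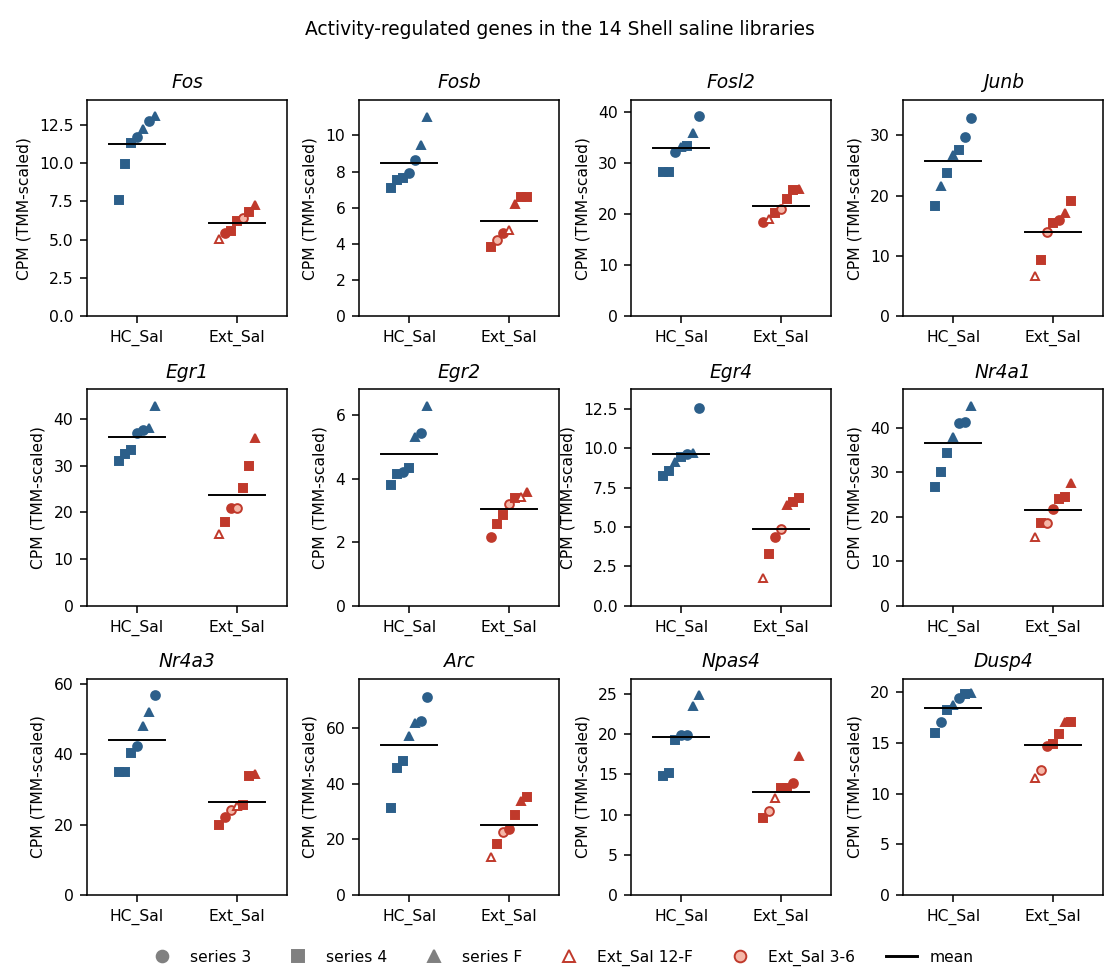
Level (TMM-scaled CPM, vertical axis from 0) of 12 activity-regulated genes in each of the 7 HC_Sal and 7 Ext_Sal Shell libraries; a point is a library, its shape the series, and the line the group mean. For Fos, Fosb, Fosl2, Egr2, Egr4 and Nr4a3 every Ext_Sal point lies below every HC_Sal point.

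The Egr genes encode zinc finger factors that act on synaptic genes. Egr4 ran from 1.75 CPM (library 12-F) to 6.82 in Ext_Sal, with a median of 4.89, and from 8.25 to 12.6 in HC_Sal, with a median of 9.45. The groups did not overlap, and the log2 fold change was -0.98 ± 0.27. Egr2 ran from 2.18 to 3.60 CPM in Ext_Sal and from 3.79 to 6.29 in HC_Sal, also without overlap, with a log2 fold change of -0.65 ± 0.19. Egr1, at a median of 20.9 CPM in Ext_Sal and 37.1 in HC_Sal, overlapped between the groups and had a log2 fold change of -0.60 ± 0.24. The estimate for Egr3, named after its value was seen, was -0.56 ± 0.22.

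Among the orphan nuclear receptors, Nr4a1 ran from 15.5 to 27.6 CPM in Ext_Sal (median 21.8) and from 26.6 to 44.8 in HC_Sal (median 37.8), a log2 fold change of -0.75 ± 0.18. Only the highest Ext_Sal library reached into the HC_Sal range. Nr4a3 ran from 19.9 to 34.3 CPM and from 34.8 to 56.8, a log2 fold change of -0.72 ± 0.20, and did not overlap. The third family member, Nr4a2, differed little, at medians of 6.16 and 5.90 CPM and a log2 fold change of -0.12 ± 0.27. It is named because its value was seen.

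Arc, a cytoskeletal protein that takes part in the removal of AMPA receptors from synapses, had the lowest estimate of the list. It stood at 13.7, 18.3, 22.7, 23.6, 28.8, 33.8 and 35.3 CPM in Ext_Sal and at 31.2, 45.9, 48.1, 57.3, 61.9, 62.7 and 71.3 in HC_Sal. A single HC_Sal library (4-11) lay within the Ext_Sal range, and this library also had the lowest Fos and Junb of its group. The log2 fold change of Arc was -1.06 ± 0.27, or 2.09-fold lower. Npas4, a factor induced by calcium entry, had medians of 13.3 and 19.8 CPM and a log2 fold change of -0.61 ± 0.18. Homer1, a postsynaptic scaffold named after its value was seen, had medians of 124 and 179 CPM and a log2 fold change of -0.59 ± 0.19. The kinase phosphatases Dusp4 and Dusp1 had log2 fold changes of -0.32 ± 0.10 and -0.58 ± 0.24, the clock gene Per1 had -0.39 ± 0.17, and the secreted peptide precursor Vgf had -0.48 ± 0.20. None of these passed (adjusted p 0.633 for each in edgeR).

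The 5 members with estimates above 0 were Bdnf, Crem, Dusp5, Atf3 and Maff, of which Bdnf alone is among the genes chosen by rule. Bdnf, the activity-dependent neurotrophin that the striatum receives mostly from cortical inputs, ran from 6.96 to 14.8 CPM in Ext_Sal and from 6.53 to 13.1 in HC_Sal, almost the same range. Its log2 fold change was 0.11 ± 0.25 with all libraries and -0.11 without library 12-F. The other 4 had log2 fold changes between 0.04 and 0.12 with all libraries. Without 12-F, Crem and Dusp5 were at 0.02 and 0.12 and Atf3 and Maff at -0.03 and -0.03.

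**Figure D2:**
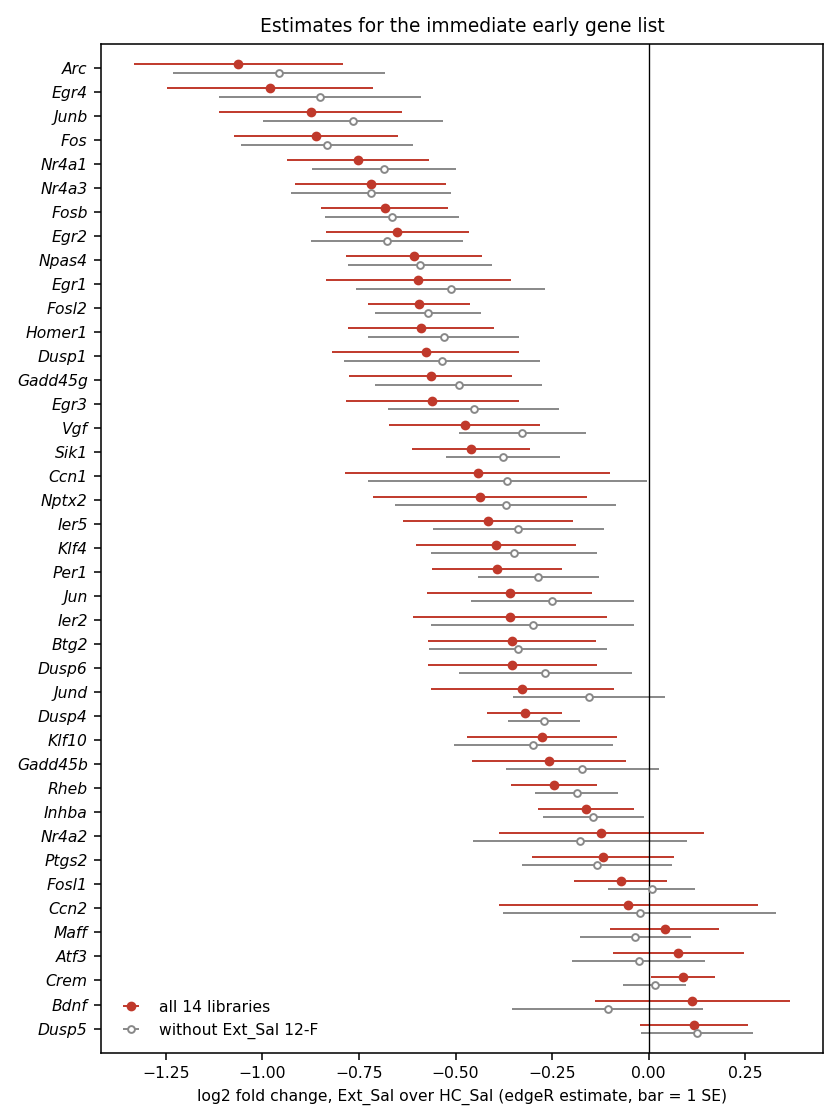
Log2 fold change of Ext_Sal over HC_Sal with 1 standard error for the 41 immediate early genes tested, with all 14 libraries (filled) and without Ext_Sal library 12-F (open). With all libraries 36 of the 41 estimates lie below 0, and without 12-F 38 do.

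The direction was shared by the series. The difference of mean log2 CPM was below 0 for 34 of the 41 members in series 3, for 39 in series 4 and for 36 in series F, and for 31 members in all of them. Its median was -0.43, -0.26 and -0.73 in that order. In the same order of series, the differences were -1.03, -0.61 and -1.04 for Fos and -1.52, -0.63 and -1.46 for Arc.

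A pair of Ext_Sal libraries, 3-6 and 12-F, stood apart from the rest in mural cell and fibroblast counts, and values are given with and without them. Library 12-F had the highest share of counts in genes of odorant and pheromone receptors, which are not expected to be transcribed in brain and stand here for stray counts (0.211%, against 0.0675% to 0.124% in the other Ext_Sal libraries and 0.0524% to 0.112% in HC_Sal). The log2 level of these genes was 10.07 ± 0.547 in Ext_Sal and 9.64 ± 0.337 in HC_Sal (SD, n = 7 each; exact permutation test, two-sided, p = 0.106), and without 12-F the difference of 0.42 became 0.26 (exact permutation p = 0.214). Libraries 3-6 and 12-F had the highest summed level of 15 mural cell and fibroblast markers, 872.5 and 643.3 CPM of total counts. The other 5 Ext_Sal libraries lay between 170.8 and 234.6 and the HC_Sal libraries between 168.3 and 225.5. Of these 5, library 4-5 had the lowest summed level of projection neuron genes of all 14 libraries, 4294 CPM of total counts. That sum was 4675 in 12-F and 4687 in 3-6. Depth ran from 13.9 to 18.4 M (mega) counts over the 14 libraries, lowest in 12-F.

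Without 12-F, 38 immediate early genes had estimates below 0, with a median of -0.34, and 17 were lower at an unadjusted p under 0.05, when 0.872% of all genes were (271 of 31089). Without 3-6 and 12-F, 40 of the 41 were below 0, with a median of -0.33, and 14 were lower, when 0.348% of all genes were (109 of 31297). The estimate for Fos was -0.83 without 12-F and -0.78 without both, for Arc -0.96 and -0.85, for Nr4a1 -0.69 and -0.61, and for Egr2 -0.68 and -0.68. The smallest adjusted p over all genes was 0.999 and 1 in these fits, so no gene passed there either. With the receptor gene level as a covariate, 38 members were below 0 and 20 were lower at an unadjusted p under 0.05, when 1333 of all 30911 genes were, against 874 without the covariate. In a fit of the 14 libraries alone Fos reached an adjusted p of 0.0888 in edgeR, and no other gene was under 0.1 in that fit. The smallest adjusted p in every other setting run was 0.38 or more.

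Genes that mark the medium spiny projection neurons, the main cell type of the accumbens, also had low estimates. Median levels per gene length were those of striatal tissue: Drd1 had 15.7 FPKM over the 14 libraries, Penk 30.3 and Ppp1r1b 38.0. The cortical marker Slc17a7 had a median of 0.50 and the choroid plexus marker Ttr 0.288 (FPKM here is per base of the whole gene, introns included). Slc17a7 ran from 0.288 to 4.49 FPKM and the cortical marker Neurod6 from 0.134 to 1.09, so cortical transcripts were not equally low in every library. Of 14 cortical glutamatergic genes, 9 had estimates below 0 (median -0.09), and 0 were lower at an unadjusted p under 0.05 (2.83% of all genes were). The estimates ran widely, from -1.11 to 0.31. Without 12-F those for the cortical genes Neurod2 and Neurod6 were -1.10 ± 0.82 and -1.18 ± 0.79. The summed level of the list ran from 264.8 to 398.5 CPM of total counts in Ext_Sal (highest in 12-F) and from 256 to 394 in HC_Sal (highest in 3-11). The part of cortical transcripts in the estimates of other genes was not tested. All 22 projection neuron genes had estimates below 0, with a median of -0.41, and 18 were lower at an unadjusted p under 0.05, when 2.83% of all genes were, and 5.68% of genes with a mean log2 CPM of 4 or more. In bulk tissue, fewer cells of a type and less RNA per cell cannot be told apart. Penk, which encodes proenkephalin and marks neurons with D2 receptors, was at 76.8 (12-F), 82.9, 90.8 (3-6), 99.8, 168, 174 and 186 CPM in Ext_Sal and at 158 to 220 in HC_Sal (median 183). Of its Ext_Sal libraries 4 lay below the HC_Sal range and 3 within it, and the log2 fold change was -0.56 ± 0.25. Drd1, the D1 dopamine receptor, had medians of 49.6 and 77.4 CPM and a log2 fold change of -0.49 ± 0.21. Drd2 had -0.31 ± 0.19, and Drd3, a receptor typical of the shell, had -0.02 ± 0.10. Without 12-F the estimates were -0.45 for Penk, -0.40 for Drd1 and -0.20 for Drd2, and without 3-6 and 12-F they were -0.34, -0.30 and -0.08. Markers of D1-type neurons were not all low. Of 10, 8 had estimates below 0 (median -0.26), and at an unadjusted p under 0.05 5 were lower and 1 higher (2.95% of all genes). Ebf1, of that list, had medians of 125.2 CPM in Ext_Sal and 104.7 in HC_Sal. The mean summed level of the list was 419.8 and 406.4 CPM of total counts in that order.

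Some other neuronal lists, which share members such as Pde10a and Pde1b, had low estimates as well, and others did not. Below 0 were 11 of 19 interneuron genes (median -0.015) and 5 of 12 neurotrophin signalling genes (median 0.055), against 44.7% of all genes. In each of these lists 1 gene was lower at an unadjusted p under 0.05. Of 24 vesicle release genes 21 were below 0 and 2 lower, and of 11 opioid and cannabinoid receptor genes 9 were below 0 and 1 lower. The precursors Pdyn (dynorphin), Tac1 (substance P) and Cartpt (CART peptide) had log2 fold changes of -0.50 ± 0.19, -0.56 ± 0.23 and -0.59 ± 0.23. At an unadjusted p under 0.05, 6 of 22 neuropeptide genes were lower. This count, those above and those that follow are to be read against the 2.83% of all genes that were lower. Among genes with a mean log2 CPM of 4 or more it was 5.68%. Of 25 dopamine and cAMP signalling genes 10 were lower, among them the phosphodiesterases Pde10a (-0.48 ± 0.19) and Pde1b (-0.55 ± 0.21) and the G protein regulator Rgs2 (-0.50 ± 0.20). The projection neuron genes Actn2, Strn and Rasd2 had -0.43 ± 0.14, -0.49 ± 0.17 and -0.68 ± 0.25. Of 28 potassium channel genes 10 were lower, with Kcna1 at -0.49 ± 0.18 and Kcnj4 at -0.41 ± 0.17, and of 25 glutamate receptor genes 5 were, with Grm4 at -0.30 ± 0.12 and Grin2b at -0.34 ± 0.15. The kinase Camk2a had -0.42 ± 0.19. Without 12-F each of these estimates was closer to 0, such as -0.42 for Pdyn, -0.37 for Pde10a, -0.39 for Kcna1, -0.22 for Grm4, -0.26 for Grin2b and -0.31 for Camk2a, and without 3-6 and 12-F these 6 were at -0.34, -0.26, -0.30, -0.14, -0.18 and -0.22.

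The count of immediate early genes was smaller without 12-F and without both 3-6 and 12-F, by the values given above. The counts of the lists below moved by a larger share when a few libraries were left out. So did the counts over all genes. The share of all genes lower was 2.83% with all libraries, 0.872% without 12-F and 0.348% without both 3-6 and 12-F. It was also smaller without 3-6 or 4-5 and larger without 4-4, by the counts given above. Without 12-F, 4 of the 22 projection neuron genes were lower at an unadjusted p under 0.05, without 3-6 5 were, without 4-5 9 were, and without both 3-6 and 12-F 0 were. All 22 estimates stayed below 0 in each of these fits, and the median without both was -0.22. Without 4-4 the count was 21. For dopamine and cAMP signalling the count was 1 without 12-F, 3 without 3-6, 5 without 4-5 and 0 without both. For potassium channels it was 1 without 12-F, 2 without 3-6 or 4-5, 4 without HC_Sal 8-F, 6 without HC_Sal 16-F and 0 without both. For neuropeptides it was 2 without 12-F, and for glutamate receptors it ran from 1 (without 12-F or 3-6) to 13 (without 4-4). The part of vessel markers, depth and receptor gene counts in these values was not tested.

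**Figure D3:**
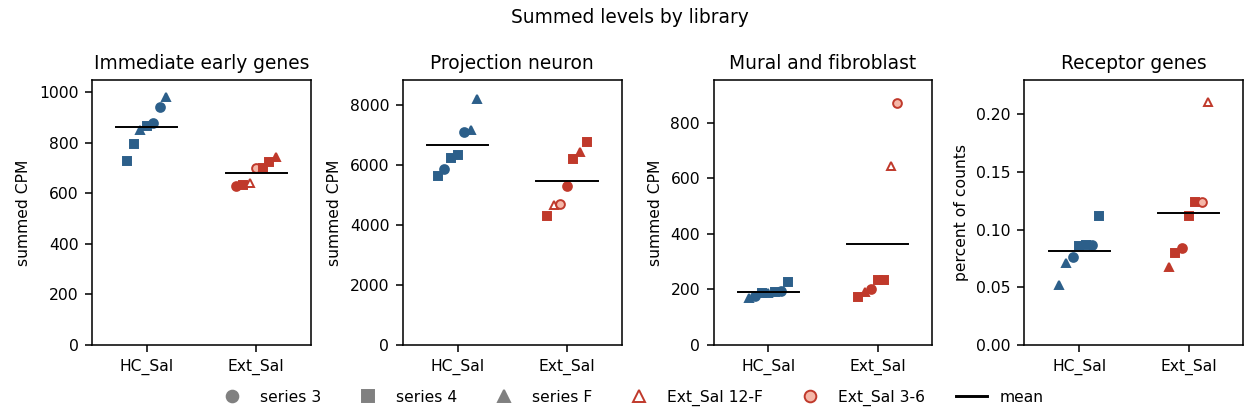
Summed level per library of the immediate early gene, projection neuron, and mural cell and fibroblast lists (CPM of total counts) and the percent of counts in receptor genes, for the 7 HC_Sal and 7 Ext_Sal libraries; lines are group means. Libraries 3-6 and 12-F lie far above the rest in mural cell and fibroblast genes, at 872.5 and 643.3.

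All 15 mural cell and fibroblast genes had estimates above 0, with a median of 0.69, and 6 were higher at an unadjusted p under 0.05, when 2.95% of all genes were. Igf2, made by the leptomeninges and vessels of the adult brain, was at 130.7 CPM in 3-6 and 37.7 in 12-F, against 6.49 to 8.59 in the other Ext_Sal libraries and 6.07 to 8.12 in HC_Sal. Its log2 fold change was 1.58 ± 0.60 with all libraries and 0.13 without these 2. The collagen genes Col1a2 and Col3a1 had 1.34 ± 0.57 and 1.33 ± 0.55, and 0.06 and 0.02 without both. Without 12-F 3 of the 15 were higher (0.714% of all genes), without 3-6 0 were, and without both 0 were (0.39% of all genes), with a median of 0.03. The count was 2 without HC_Sal 3-11, 4 without HC_Sal 3-12, 10 without Ext_Sal 4-4 and 11 without Ext_Sal 3-5, in fits where 718, 882, 1614 and 1139 of all genes were higher, and 433 were without 3-6. Among 11 endothelial genes 4 were higher with all libraries, with Vwf at 0.45 ± 0.19 and Tek at 0.30 ± 0.12 (0.36 and 0.15 without 12-F). The count was 2 without 3-6 or without HC_Sal 3-12 or 8-F, and 0 without 12-F. In the blood list, 9 of 11 estimates were above 0, with Hbb-b1 at 0.52 ± 0.20. Zic2, a marker of the septal region, was at 20.2 CPM in 3-6 and at 3.17 to 5.44 in the other Ext_Sal libraries.

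**Figure D4:**
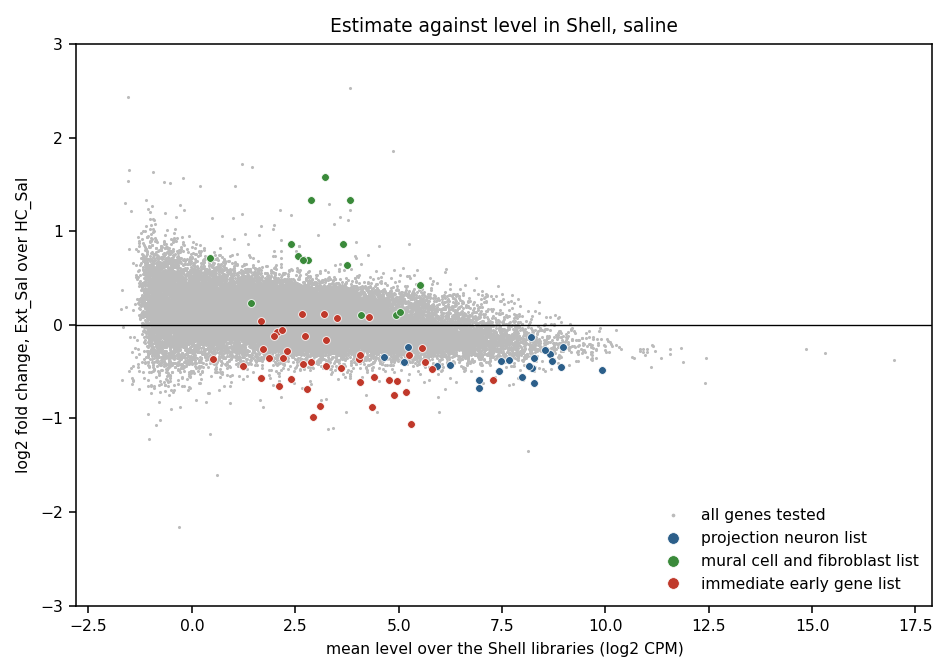
Log2 fold change of Ext_Sal over HC_Sal against mean level over the Shell libraries (log2 CPM) for the 30911 genes tested, with 3 gene lists in color. Immediate early genes lie mostly below 0 at low and middle levels, projection neuron genes below 0 at high levels, and mural cell and fibroblast genes above 0.

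The estimates also followed the level of a gene. Among 9031 genes with a mean log2 CPM of at least 4, 74.2% were below 0, with a median of -0.11, and 5.68% were lower at an unadjusted p under 0.05. Among the 13059 genes between a log2 CPM of 1 and 4 the median was 0.09. Among 8821 genes below a log2 CPM of 1, the median was 0.17, and 481 receptor genes had a median of 0.24. The 74 ribosomal protein genes were all below 0, with a median of -0.17, and 0 of them had an unadjusted p under 0.05. All 14 heat shock genes were below 0 (median -0.26, Hsph1 at -0.32 ± 0.16) and so were the 13 genes of the mitochondrial genome (median -0.26, ND5 at -0.35 ± 0.14), with 0 and 2 lower at an unadjusted p under 0.05. Targets of the glucocorticoid receptor gave no common direction: 10 of 18 were below 0, with Fkbp5 at -0.12 ± 0.07, Sgk1 at -0.16 ± 0.11 and Klf9 at -0.28 ± 0.14.

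The named genes of lowest p with higher estimates were of mixed kinds, and none passed (edgeR's adjusted p 0.633 for each). In 10 genes (0.0324%) every Ext_Sal library lay above every HC_Sal library. Igf1, a growth factor, had medians of 19.3 and 16.1 CPM and a log2 fold change of 0.39 ± 0.13, and 0.15 without 3-6 and 12-F. Slc40a1, the iron exporter ferroportin, had 0.38 ± 0.13, and 0.29 without both. Trim34, Trim5 and Sp100, which act in antiviral defence, had 0.34 ± 0.10, 0.29 ± 0.10 and 0.28 ± 0.10, and 0.19, 0.15 and 0.11 without both. Of 23 interferon and antigen presentation genes 21 were above 0 but 1 had an unadjusted p under 0.05 (Rsad2, 0.38 ± 0.17). Cysltr1, a leukotriene receptor, had 0.58 ± 0.18, and Vom1r42, a vomeronasal receptor gene of the kind that is silent in brain, had 0.45 ± 0.12. Ranbp3l had 1.11 ± 0.39, which was 0.07 without 3-6 and 12-F, and the mitochondrial transfer RNA gene Trnt had 2.53 ± 0.83, with 337 CPM in the single library 4-4 and a log2 fold change of 0.54 without it. Triqk, Tbc1d8b, Rwdd3, Mcm8, Akr1c15 and Gng12 completed the rule, with log2 fold changes between 0.19 and 0.36. Among the lowest p outside the immediate early genes on the other side were Rad9b, a checkpoint protein (-0.29 ± 0.07), Entpd3, an enzyme that degrades extracellular ATP (-0.43 ± 0.12), Traip (-0.46 ± 0.13) and B3gnt2 (-0.36 ± 0.10).

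The same contrast in rats given cocaine uses other libraries, so its difference from the saline contrast can be tested. Ext_Coc against HC_Coc in Shell gave 35 of 41 immediate early genes below 0, with a median of -0.26, and 15 lower at an unadjusted p under 0.05 (3.6% of all genes). Of all genes 45.2% were below 0 in the cocaine groups, with a median of 0.05. For Fos the log2 fold change was -0.57 in the cocaine groups against -0.86 in the saline groups, and the difference was -0.29 ± 0.30 (SE). For Arc it was -0.52 against -1.06, with a difference of -0.55 ± 0.38. No gene passed an adjusted p of 0.05 for the difference (0%) in edgeR, 241 genes had an unadjusted p under 0.05 (0.78%), and 0 immediate early genes did. Among the genes of lowest p in this test were Rnd3 (0.56 ± 0.16), Hbb-b1 (0.94 ± 0.28), Trnd (2.99 ± 0.98) and Trnl2 (2.33 ± 0.80). The differences for Fos and Arc did not pass with 7 libraries a group.

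In Core, Ext_Sal against HC_Sal gave 30 of 41 immediate early genes below 0, with a median of -0.16, and 2 lower at an unadjusted p under 0.05 (0.271% of all genes). Of all genes 57.7% were below 0 in Core, with a median of -0.04. Fos was at -0.54 there, Arc at -0.48 and Nr4a3 at -0.55. The projection neuron list had a median of 0.05 in Core, with 2 of 22 below 0, whereas all 22 were below 0 in Shell. The difference between Shell and Core was not past an adjusted p of 0.05 for any gene in edgeR (0%), and 273 genes had an unadjusted p under 0.05 (0.849%), with 0 in either list. For Fos the difference was -0.33 ± 0.39, and for Penk -0.70 ± 0.49, with standard errors that take Core and Shell libraries as independent. Under the level and symbol rule for named genes, the 5 of lowest p were Mitd1 (-0.52 ± 0.16), Pcdhb6l (-0.58 ± 0.19), Ulk3 (-0.50 ± 0.18), Arhgap11a (0.69 ± 0.25) and Coa7 (-0.35 ± 0.13).

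**Figure D5:**
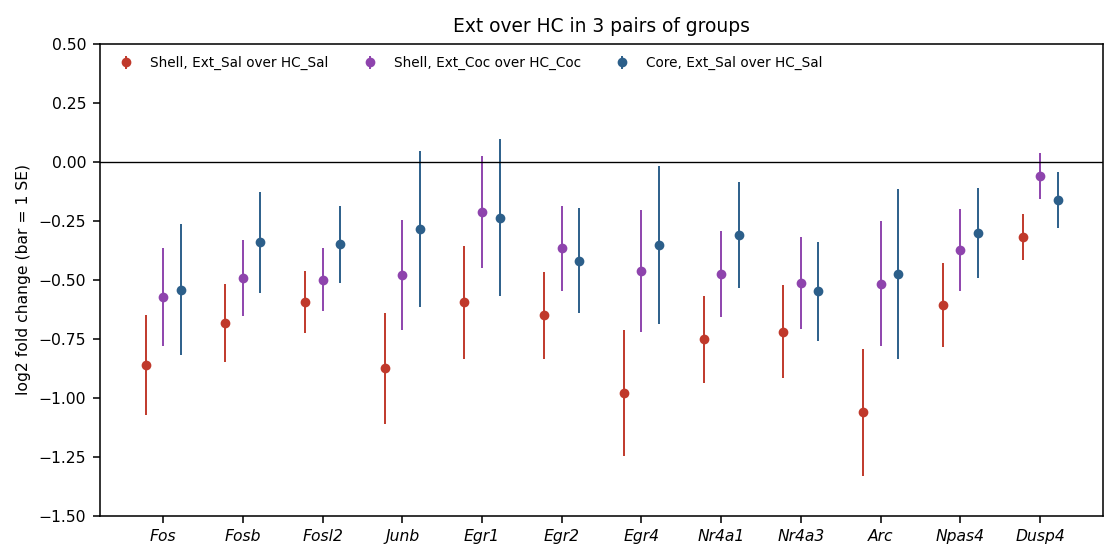
Log2 fold change of Ext over HC with 1 standard error for 12 activity-regulated genes in Shell saline, Shell cocaine and Core saline libraries. Every estimate shown lies below 0, and the difference between pairs of groups passed for none of the 12 genes.

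Within Shell the saline libraries of the Ctx condition (commonly context, which the labels do not state) had means between those of the other 2 for Fos and Arc. Mean log2 CPM of Fos was 2.63 ± 0.18 in Ext_Sal, 3.02 ± 0.38 in Ctx_Sal and 3.48 ± 0.27 in HC_Sal (SD, n = 7 each), and in the cocaine groups it was 2.71 ± 0.47 in Ctx_Coc, 3.08 ± 0.57 in Ext_Coc and 3.62 ± 0.53 in HC_Coc. For Arc the saline means were 4.59 ± 0.49, 5.36 ± 0.43 and 5.72 ± 0.40 in Ext_Sal, Ctx_Sal and HC_Sal. The spreads of neighbouring groups overlapped, and Ctx_Sal against HC_Sal, which shares the HC_Sal libraries with the contrast above, gave 29 of 41 immediate early genes below 0 with a median of -0.12. Of all genes 42.4% were below 0 in that comparison, with a median of 0.02. Ext_Sal against Ctx_Sal, which shares the Ext_Sal libraries, gave 1941 genes lower and 631 higher at an unadjusted p under 0.05, 0 past an adjusted p of 0.05 in edgeR, and log2 fold changes of -0.40 ± 0.21 for Fos and -0.73 ± 0.27 for Arc.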

How the data were processed

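Libraries for low input were made from total RNA (Direct-zol, then a stranded SMARTer v3 Pico kit), per the labels' protocols. Per the submitters' processing notes, featureCounts and build mRatBN7.2 stand behind the deposited counts, which are unscaled integers. The aligner, the annotation release, the strandedness of counting and the handling of molecular identifiers were not given in the sources used here, so reads of overlapping or antisense genes and of near-identical copies cannot be told apart. The deposited FPKM values imply 1 length per gene for 100% of 34190 genes checked (within 1%), which is the whole gene for those printed (452344 bases for Pde10a). FPKM served only for levels between genes.

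Genes were kept by filterByExpr (30911 of 41919 over the 42 Shell libraries, 32145 over all 84) and scaled by TMM. They were tested with edgeR 4.0.16 (R 4.3.3), two-sided quasi-likelihood F test, series as covariate, all 42 Shell libraries in 1 fit, Benjamini-Hochberg adjustment and a threshold of 0.05. The test was checked on simulated data. DESeq2 1.42.0 was an alternative, beside other filters, sample sets and covariates. Log2 CPM has a prior count of 2. The difference between Shell and Core used all 84 libraries. No pair of the 14 libraries was identical (0 of 91).

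The 32 gene lists and the libraries described were chosen with earlier results of these data known. Named genes are the 15 of lowest p in each direction with a mean level of 1 log2 CPM or more and a true symbol, up to 3 of lowest p per list, a panel of activity, receptor, peptide and stress genes, and 5 of lowest p in each test of a difference. The level and symbol rule held for the 5 of each such test as well. The list medians and counts have no test of their own. Some genes that met the rule are not reported here.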

Additional observations from a re-analysis of the deposited data

Results flagged for a closer look

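In each group of 7, the lowest or highest library was set against its neighbour as a share of the group's range, with Dixon's critical value of 0.568. Of 172 sets of 7 values checked, 8 stood out. The sets come from the same 14 libraries and are not independent, so the count has no chance rate to be read against. A gap to the neighbour also misses a pair of libraries that stand out together, as 3-6 and 12-F did in mural cell and fibroblast counts. In HC_Sal, Egr4 was at 3.67 log2 CPM in library 3-11, above the next at 3.30. Dusp1 was at 1.79 log2 CPM in HC_Sal 4-11, below the next at 2.44. In Ext_Sal 12-F, Vgf was at 4.16 log2 CPM, below the next at 5.39. The mitochondrial transfer RNA gene Trnt was at 8.40 log2 CPM in Ext_Sal 4-4, against 4.92 in the next library, and at 5.07 in HC_Sal 3-11, against 3.59. Tbc1d8b was at 2.84 log2 CPM in HC_Sal 8-F, below the next at 3.24. Zic2 was at 4.35 log2 CPM in Ext_Sal 3-6, above the next at 2.47. Trnl2 was at 1.61 log2 CPM in Ext_Sal 4-6, below the next at 2.17.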

How the results depend on the processing

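The count of genes past an adjusted p of 0.05 was 0 in every setting run, for the comparison of Ext_Sal with HC_Sal and for both tests of a difference, including the replicate block of Core and Shell libraries (0 genes). No numbers pair Ext_Sal with HC_Sal libraries. Core and Shell libraries of the same title number may come from the same rats, which the labels do not state. Deviations from group and series means were taken in each subregion, less their 6 largest components of variation, over the 200 most variable genes. Libraries of the same number had a median correlation of 0.212 in these deviations, against -0.0041 for other numbers. Of the 30 correlations 21 exceeded 0.1, and 8 of the 30 libraries correlated best with their own number. The main fit of Shell against Core did not pair them, so its standard errors take the libraries as independent. At an unadjusted p under 0.05, genes lower in Ext_Sal numbered 500 without the F series, 44 in the F series alone, 1333 with the receptor gene level as a covariate and 109 without 3-6 and 12-F, and 271 to 2441 when 1 library was left out. Genes higher numbered 1937 with only the groups compared, 44 in the F series alone, 364 with the covariate, 122 without 3-6 and 12-F, 278 with the covariate and without 12-F, and 222 to 1614 when 1 library was left out. Immediate early genes lower at an unadjusted p under 0.05 numbered 6 in the F series alone and 17 to 21 when 1 library was left out. Projection neuron genes lower numbered 8 without the F series, 0 in the F series alone, 0 without 3-6 and 12-F, and 4 to 21 when 1 library was left out. Mural cell and fibroblast genes higher numbered 2 without the F series, 3 with the covariate, 0 without 3-6 and 12-F, 2 with the covariate and without 12-F, and 0 to 11 when 1 library was left out. Fits with fewer libraries have less power, and apart from that the cause was not tested. The fits without 3-6 and 12-F together, and with the covariate and without 12-F, were chosen after seeing the data.

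Of the 78 genes recomputed in each setting, these changed sign. Bdnf was at -0.15 without the F series, -0.24 with the covariate, -0.11 (without 12-F) to 0.20 when 1 library was left out, -0.16 without 3-6 and 12-F and -0.26 with the covariate and without 12-F. Drd3 was at 0.0022 without the F series, 0.0041 without HC_Sal 16-F and from -0.053 to 0.011 (without HC_Sal 3-12) when 1 library was left out. Trnd was at -0.14 with the covariate, -0.057 (without HC_Sal 4-11) to 0.15 when 1 library was left out, with -0.013 without 12-F, -0.050 without 3-6 and 12-F and -0.12 with the covariate and without 12-F. Trnl2 was at -0.091 with the covariate, Hbb-b1 at -0.020 in the F series alone and Arhgap11a at -0.00029 with the covariate and without 12-F. DESeq2's size factors reversed none of these 78.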
